A study of Mus musculus with 2 samples.

Results

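The transcripts described here encode 10 mediators of acute inflammation and their nearest partners: the cytokines Il1b, Il1a, Tnf, Il6, Osm and the subunits Il12b and Il23a, the IL-1 receptor antagonist Il1rn, the inflammasome sensor Nlrp3, and Ptgs2, the enzyme cyclooxygenase-2. They were chosen by name, not by their values, but with earlier results of these data known. They are 10 of the 31253 genes in the count tables. Intestine of 2 wild-type mice was dissociated whole for droplet single-cell RNA sequencing, giving 1 library per group. The RA library came from a mouse on standard chow that the series' design text places in the collagen-induced arthritis (CIA) group. The butyrate library came from a wild-type mouse whose diet held 1% butyrate, a product of bacterial fermentation in the colon, and the labels do not say whether this mouse also had arthritis. Strain, age and time on the diet are not given in the sources used here. Diet, mouse and library cannot be told apart, so no difference below was tested between groups, and every interval covers counting error only.

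IL-1 beta and IL-1 alpha bind the same receptor, and the antagonist encoded by Il1rn occupies that receptor without signalling. Nlrp3 assembles the inflammasome, in which caspase-1 cuts the IL-1 beta precursor into its active form. TNF and IL-1 switch on NF-kB, which in turn induces Il6, Ptgs2 and their own genes. In the gut these mediators are known from macrophages, monocytes, neutrophils and stromal cells that respond to microbes and injury, whereas IL-12 and IL-23, which share the subunit encoded by Il12b, are known from dendritic cells and macrophages that instruct T cells and innate lymphoid cells. Oncostatin M, the product of Osm, acts on stromal cells through a receptor of the IL-6 family.

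Positions of all 10 genes were taken from GENCODE M21 for GRCm38; the submitters' processing notes name this build as mm10. Il1b lies on the minus strand at chr2:129364570-129371139 and Il1a on the minus strand at chr2:129299610-129309972, with Il1rn on the plus strand at chr2:24336853-24351494. Tnf lies at chr17:35199381-35202007 (minus), Il6 at chr5:30013114-30019981 (plus), Ptgs2 at chr1:150100031-150108227 (plus) and Nlrp3 at chr11:59541568-59566956 (plus). Il12b lies at chr11:44400063-44414033 (plus), Il23a at chr10:128296139-128298752 (minus) and Osm at chr11:4236420-4241026 (plus). The annotated antisense gene Il1bos overlaps Il1b and held 11 RA and 18 butyrate UMIs (unique molecular identifiers, each standing for 1 captured transcript end), against 4881 and 5919 of Il1b. How reads were assigned to strands is not given in the sources used here.

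RefSeq promoters were found for 8 of the 10 genes; Il23a and Osm had none in the table used. Below are the 250 bases before the start of Il1b, Il6 and Ptgs2 (RefSeq, GRCm38.p6), printed 5′ to 3′ on the gene's strand. Among the named gates, macrophages held the largest share of Il1b UMIs, fibroblasts that of Il6, and both together that of Ptgs2. Capitals mark the matches to 4 motifs: NF-kB (searched by its usual consensus, both strands), AP-1 (TGANTCA, both strands), the cAMP response element (TGACGTCA, both strands) and the TATA box (TATAAA, on the gene's strand). The windows are chr2:129371140-129371389 for Il1b, chr5:30012864-30013113 for Il6 and chr1:150099781-150100030 for Ptgs2.
Il1b: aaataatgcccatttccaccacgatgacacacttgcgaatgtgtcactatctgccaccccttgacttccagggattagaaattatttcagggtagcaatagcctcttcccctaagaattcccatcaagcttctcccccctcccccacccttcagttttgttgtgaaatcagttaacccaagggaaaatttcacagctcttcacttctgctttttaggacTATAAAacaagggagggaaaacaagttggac
Il6: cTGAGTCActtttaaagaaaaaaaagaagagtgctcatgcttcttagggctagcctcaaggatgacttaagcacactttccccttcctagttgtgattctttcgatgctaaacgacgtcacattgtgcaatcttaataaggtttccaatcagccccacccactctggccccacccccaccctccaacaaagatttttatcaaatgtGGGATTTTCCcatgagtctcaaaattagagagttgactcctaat
Ptgs2: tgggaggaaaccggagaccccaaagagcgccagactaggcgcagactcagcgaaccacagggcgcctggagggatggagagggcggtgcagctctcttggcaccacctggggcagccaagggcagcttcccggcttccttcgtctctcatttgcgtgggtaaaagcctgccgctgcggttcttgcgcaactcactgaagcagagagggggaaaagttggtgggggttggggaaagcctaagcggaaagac

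Counted back from the start, with -1 the last base before it, Il1b held TATAAA from -31 to -26 and no other of the 4 motifs. Il6 held an NF-kB match, GGGATTTTCC, from -44 to -35 and an AP-1 match from -249 to -243. Ptgs2 held none of these letters in this window. In the other promoters, TATAAA stood from -29 in Tnf and from -32 in Il1a. AP-1 matches, whose pattern is met on both strands at once, stood from -12 in Il1a and from -141 in Il1rn. An NF-kB match stood from -186 in the second Nlrp3 promoter. No match overlapped another motif. Of 32851 promoter windows of the same length, 7.251% held the NF-kB motif, 6.749% AP-1, 1.546% the cAMP response element and 7.592% TATAAA.

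The RA library had 10140 barcodes with 61912439 UMIs and the butyrate library 9959 with 67894477. The floor was 500 UMIs and 250 genes per barcode and the ceiling 25% mitochondrial UMIs, which left 6909 and 8247 with medians of 4712 and 5141 UMIs. Above the mitochondrial limit lay 29.95% of RA and 15.42% of butyrate barcodes. The libraries shared 27 barcode sequences, 19 of them among kept barcodes and none in a macrophage gate.

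Cells were sorted by marker gates, and a barcode could pass several. Macrophages (at least 10 UMIs of C1qa, C1qb and C1qc together, the complement genes of tissue macrophages) numbered 130 RA and 107 butyrate barcodes. Mrc1, the mannose receptor of resident macrophages, split them into 113 and 89 with a UMI and 17 and 18 without. Fibroblasts (at least 2 UMIs of Col1a2) numbered 865 and 367, and T cells (Cd3e) 743 and 1355. These gates carried their markers: all 10 macrophage markers were each detected in at least 10% of Mrc1+ macrophages of both libraries, and 8 of 8 fibroblast markers and 8 of 8 T cell markers were detected in their gates. Mrc1- macrophages had medians of 5108 (RA) and 15410 UMIs (butyrate). Just outside the macrophage threshold, 32 RA barcodes with 5 to 9 C1q UMIs had 569.1 CPM of Il1b and 31 just inside, with 10 to 14, had 1528 CPM; 5 butyrate barcodes outside had 5364 CPM and 16 inside 1833 CPM. CPM, the gene's UMIs per 1000000 UMIs of all barcodes in a gate, is the level used throughout.

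The gate for dendritic cells did not hold mainly those cells, nor did that for eosinophils in the butyrate library. In the RA library the eosinophil gate was mixed. Of the 563 RA and 1054 butyrate barcodes with a UMI of Flt3, a growth factor receptor of dendritic cells, 86.86% and 92.6% passed the gate of another class, and all 6 B cell markers were detected in each. They are called Flt3+ barcodes here. Without barcodes holding a UMI of Cd79a, Cd3e or Epcam or 10 or more of C1q, 42 RA and 38 butyrate Flt3+ barcodes were left, with 6 and 7 of 10 dendritic markers detected and Ccr7 and Fscn1, genes of migratory dendritic cells, leading. The Siglecf or Ccr3 gate (at least 2 UMIs) held 50 and 16 barcodes, of which 34% and 93.75% passed the gate of another class. Of 8 eosinophil markers 3 were detected in at least 10% of barcodes in each library, and the epithelial list had the highest summed level, led by Krt8 and Epcam. The granule genes Epx and Prg2 had 1 and 0 UMIs in the RA library and 0 and 0 in the butyrate library. Without barcodes holding a UMI of Cd79a, Cd3e or Epcam, 34 RA barcodes and 1 butyrate barcode were left, and the latter carried 214 UMIs of the mast cell protease Mcpt1. The 34 RA barcodes held 45642 of the 187138 UMIs of the RA gate, so summed levels of that gate weigh the deeper barcodes more. These narrower gates were set after the overlaps had been seen.

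Levels in CPM are given with exact Poisson 95% intervals. Counts of 3′ ends carry no term for gene length. B cells (at least 2 UMIs of Cd79a and none of Cd3e) and epithelial cells (at least 2 of Epcam) serve as a background for free RNA and for barcodes that hold more than 1 cell. After each barcode was thinned to 1000 UMIs, Il1b was seen in 0.729% of RA and 0.3863% of butyrate B cell barcodes, against 34.51% and 48.31% of Mrc1+ macrophages.

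Each mediator came from its own mix of cells. Il6 and Ptgs2 were stromal in large part: when each barcode was counted once, in the first gate it passed, fibroblasts held 78.0% of the Il6 UMIs of the RA library and 51.4% of those of the butyrate library. For Ptgs2 the fibroblast share was 60.7% and 32.3%, and that of Mrc1+ macrophages 10.4% and 28.8%. Mrc1+ macrophages were the leading source of Osm and Nlrp3, with 55.2% and 56.5% of the Osm UMIs and 42.3% and 52.4% of the Nlrp3 UMIs. Il12b lay in Flt3+ barcodes, at 67.5% and 98.0%. Epithelial barcodes were the leading named source of Il1rn, with 29.5% and 36.3%, and the largest shares of Tnf were 27.1%, in RA Mrc1+ macrophages, and 24.5%, in butyrate epithelial barcodes.

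**Figure D1:**
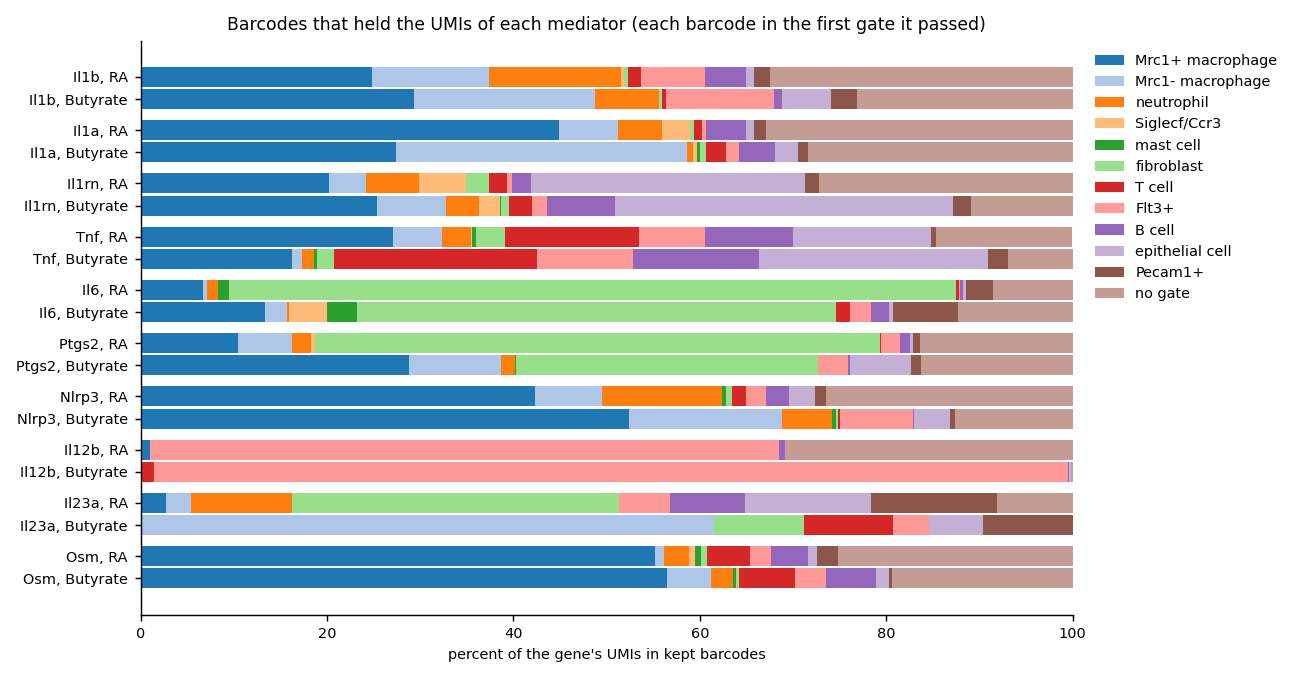
Percent of each mediator's UMIs (x axis) by gate (colours), with RA and butyrate libraries as neighbouring bars (y axis) and each barcode counted in the first gate it passed. The fibroblast segment covers 78.0% of the RA bar and 51.4% of the butyrate bar of Il6, whereas the bars of Tnf are divided among macrophages, T cells, B cells and epithelial cells.

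Il1b was the most abundant of the mediators in macrophages. In Mrc1+ macrophages its level was 1427 CPM (1348 to 1510, 1211 UMIs) in the RA library and 2248 CPM (2144 to 2357, 1736 UMIs) in the butyrate library. In Mrc1- macrophages it was 3822 CPM (3526 to 4136) and 4641 CPM (4377 to 4917). The level without Mrc1 was thus above that with Mrc1 in both libraries, with intervals apart. In Mrc1- macrophages 50% of the Il1b UMIs lay in 2 of 17 RA and 4 of 18 butyrate barcodes. The RA median was 1 UMI per barcode in both macrophage gates. Neutrophils (at least 5 UMIs of S100a8 and S100a9 together, 36 and 14 barcodes) were in the same range, at 3005 CPM (2784 to 3238) and 5388 CPM (4875 to 5940). In the RA library the order was Mrc1- macrophages, neutrophils, Mrc1+ macrophages, each apart from the next. The butyrate intervals of neutrophils and Mrc1- macrophages overlapped. T cells had 15.9 and 16.8 CPM and epithelial barcodes 38.2 and 45.9 CPM.

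The Il1b of macrophages was carried by few cells. A UMI was found in 58 of 113 RA and 56 of 89 butyrate Mrc1+ macrophages, but only 29 and 31 barcodes had 10 or more. The highest barcode had 90 (RA) and 199 UMIs (butyrate), and 11 and 7 barcodes held 50% of all Il1b UMIs of the gate. The median Mrc1- macrophage had 1 Il1b UMI (RA) and 47 (butyrate, where depth was also higher). The butyrate over RA ratio in Mrc1+ macrophages was 1.576 (1.463 to 1.697). It stayed between 1.52 and 1.77 under the 9 other settings tried.

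**Figure D2:**
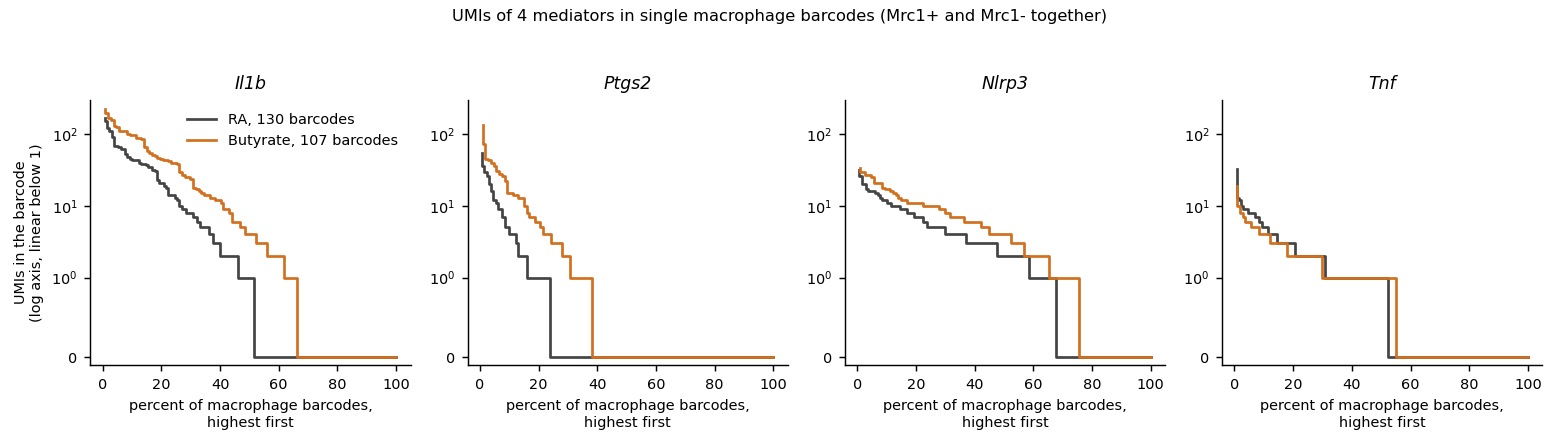
UMIs of Il1b, Ptgs2, Nlrp3 and Tnf (y axis, log scale, linear below 1) in each macrophage barcode, ranked from the highest down and placed by percent of the barcodes (x axis), for 130 RA and 107 butyrate barcodes. The butyrate curve lies above the RA curve for Il1b and Ptgs2 at every rank with a UMI, and the Tnf curves cross.

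A large share of Il1b lay outside every gate. Barcodes that passed no gate held 32.5% of the RA and 23.2% of the butyrate Il1b UMIs, in 82 of 979 and 32 of 646 barcodes. Of these Il1b-positive barcodes, 59 of 82 and 24 of 32 had a UMI of the myeloid gene Lyz2, and 43 of 82 and 22 of 32 of the monocyte receptor gene Ccr2. S100a9 was at 0 in all of them, and C1qa was seen in 22 of 82 and 6 of 32, within the limits that the gates set. Their level of Il1b per gate was 441.6 CPM (420.1 to 463.8) and 435.8 CPM (413 to 459.4). These non-member genes were chosen after values had been seen. Others, among them Csf1r, Csf3r, S100a8, Cxcr2, Itgax, Siglecf and Plac8, were also counted and are not given here. Nor are the shares in barcodes of no gate without Il1b.

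Il1a, the IL-1 form that is active without being cut, was far below Il1b in Mrc1+ macrophages, at 123.7 CPM (101.2 to 149.8) in the RA library, and its butyrate interval was 79.9 to 126.1 CPM (78 UMIs). In Mrc1- macrophages it was 93.1 CPM (52.1 to 153.5, 15 UMIs) and 358.3 CPM (287.7 to 440.9, 89 UMIs). Of these 89 UMIs, 43 lay in 1 barcode. That barcode had a UMI count of 15487, 22 UMIs of C1qa and 2 of Flt3, and it also carried 226 UMIs of Il1b, 43 of Ptgs2 and 31 of Il23a.

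Il1rn was found at similar levels in several myeloid gates. Its level in Mrc1+ macrophages was 352.3 CPM (313.5 to 394.6) in the RA library and 409.3 CPM (365.4 to 457.0) in the butyrate library, in Mrc1- macrophages 366.1 and 370.4 CPM, and in neutrophils 366.3 and 600.2 CPM. The intervals of these 3 gates overlapped within each library. Il1b exceeded Il1rn in each of them. In epithelial barcodes of no other class the order was the reverse. Il1rn had 42.3 CPM (38.4 to 46.5, 145 of 689 barcodes) in the RA library and 43.7 CPM (39.8 to 48.0, 139 of 851) in the butyrate library, a ratio of 1.034 (0.9046 to 1.182). Il1b had 4.91 and 30.0 CPM there, and 5 barcodes held 96.1% and 97.7% of its UMIs.

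Siglecf or Ccr3 barcodes had 406.1 CPM of Il1rn (320 to 508.3, 76 UMIs in 19 of 50 barcodes) in the RA library and 235.4 CPM (156.4 to 340.2, 28 UMIs in 7 of 16) in the butyrate library. In the 34 RA barcodes of this narrower gate it was 1446 CPM, from 66 UMIs. Those 34 barcodes had a median of 1050 UMIs and carried Alox15, Cd300lf and Ear6 of the eosinophil list (summed level 1840 CPM) and Retnlg of the neutrophil list (summed level of the list 4207 CPM). With 1 such barcode in the butyrate library, the libraries cannot be compared there.

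Nlrp3 had nearly the same level in neutrophils and both macrophage gates. Mrc1+ macrophages had 543.2 CPM (494.7 to 595.1) in the RA library and 682.6 CPM (625.5 to 743.4) in the butyrate library, Mrc1- macrophages 490.1 and 664.2 CPM, and neutrophils 610.5 and 720.2 CPM, with overlapping intervals in each library. It was the mediator seen in most Mrc1+ macrophages, with a UMI in 81 of 113 and 66 of 89. T cells had 2.79 and 2.69 CPM.

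Tnf was lower than Il1b in macrophages and spread over more cell types. Mrc1+ macrophages had 235.6 CPM (204.1 to 270.7) in the RA library and 191.7 CPM (162.1 to 225.2) in the butyrate library, a ratio of 0.8135 (0.6532 to 1.011). Its UMIs were few per cell: 63 of 113 and 53 of 89 barcodes had Tnf, and 3 and 2 of them had 10 or more. In Mrc1- macrophages the RA level of 242 CPM came from 39 UMIs, 33 of them in 1 barcode, and the butyrate level of 40.3 CPM from 10 UMIs. Without the top barcode of each library the ratio there was 0.598 instead of 0.1664.

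T cells had the highest Tnf level of the lymphoid gates. It was 20.6 CPM (17.03 to 24.6) in the RA library and 18.8 CPM (16.3 to 21.5) in the butyrate library, with a UMI in 69 of 743 and 132 of 1355 barcodes. B cells had 6.27 and 6.96 CPM and epithelial barcodes 12.8 and 19.0 CPM. At 1000 UMIs per barcode, 2.561% and 1.624% of T cell barcodes had Tnf, against 0.6656% and 0.6223% of B cell and 1.784% and 1.333% of epithelial barcodes. Cd69, an early activation gene of lymphocytes, was seen in 9 of 19 RA and 10 of 22 butyrate T cell barcodes with Tnf, and in 161 of 723 and 315 of 1333 without.

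**Figure D3:**
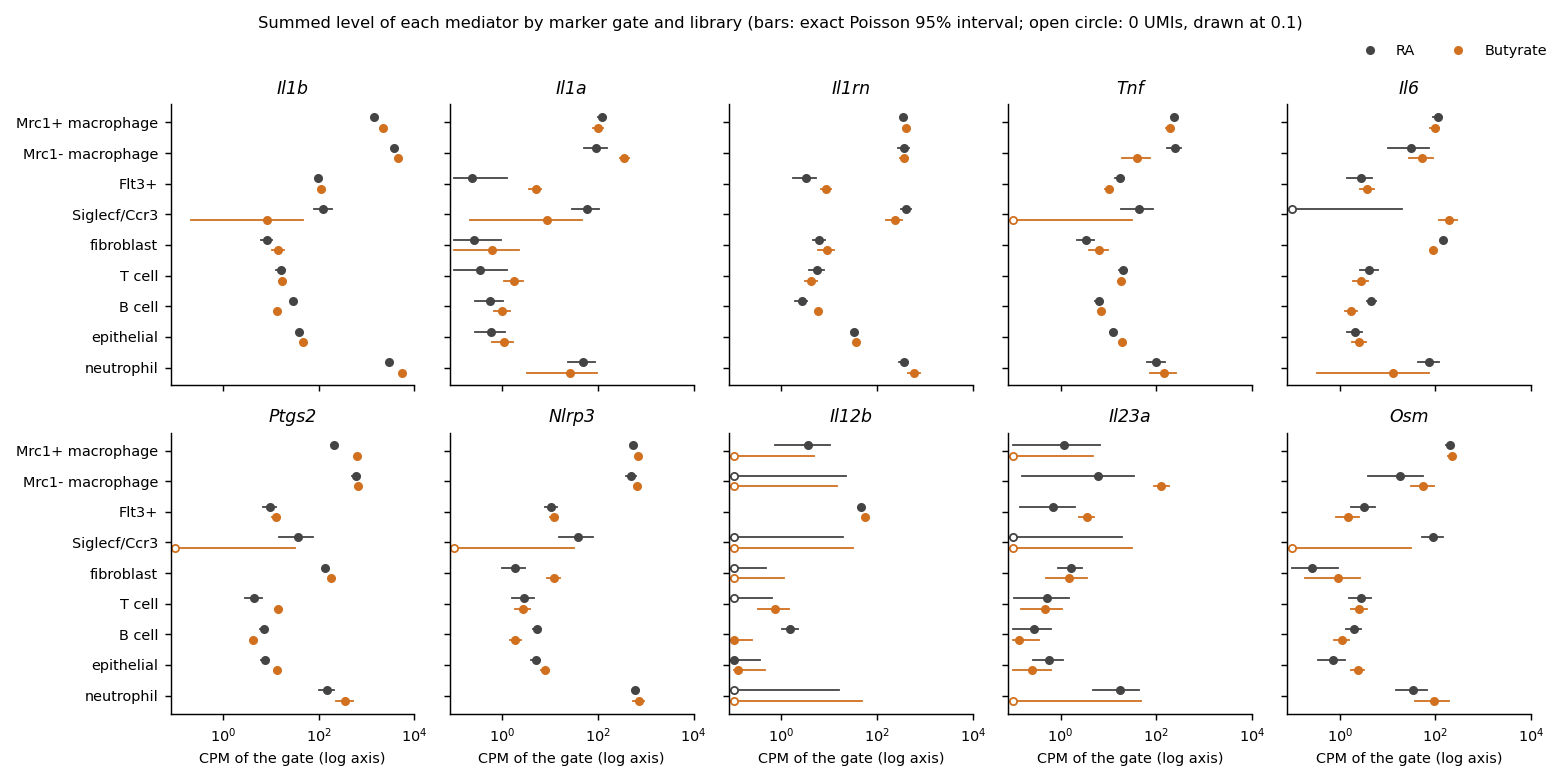
Level of each mediator in CPM (x axis, log scale) in 9 gates (y axis), RA in grey and butyrate in orange, with exact Poisson 95% intervals; open circles mark 0 UMIs. Il1b and Nlrp3 are highest in macrophages and neutrophils, Il6 reaches 144.6 CPM in RA fibroblasts, and Il12b stands out in Flt3+ barcodes, at 46.1 and 56.2 CPM.

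Il6 was a fibroblast transcript in these tissues by amount. Fibroblasts had 144.6 CPM (136.2 to 153.3, 1116 UMIs in 211 of 865 barcodes) in the RA library and 89.1 CPM (79.2 to 99.99, 291 UMIs in 107 of 367) in the butyrate library. The ratio was 0.6165 (0.540 to 0.702), above the 0.5 asked of a call, and 0.639 without the top barcode of each library, which in the RA library alone held 85 UMIs. At 1000 UMIs per barcode the share of fibroblasts with Il6 was 8.033% and 7.902%, and the ratio was 0.725 (0.481 to 1.068), so the interval included 1. Over all kept barcodes Il6 was 29.4 CPM in the RA library and 9.45 CPM in the butyrate library, a ratio of 0.3215, beside 865 and 367 fibroblasts in the 2 libraries.

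Other cells also carried Il6. Mrc1+ macrophages had 111.9 CPM (90.6 to 136.8) and 97.1 CPM (76.4 to 121.8), in 27 of 113 and 17 of 89 barcodes, and these intervals overlapped those of fibroblasts in each library. Mast cells (at least 2 UMIs of Cpa3) had the highest level, at 448.3 CPM (261.1 to 717.7) and 549.2 CPM (392.4 to 747.9), from 7 and 8 barcodes. The RA level came from 17 UMIs in 4 barcodes. In the butyrate library 22 of the mast cell UMIs of Il6 lay in 1 barcode, which also passed the Siglecf or Ccr3 gate. Endothelial barcodes chosen by at least 2 UMIs of Cdh5 had 23.2 CPM (16.2 to 32.1, 156 barcodes) and 46.8 CPM (33.7 to 63.2, 98 barcodes). B and T cells had between 1.74 and 4.62 CPM.

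Ptgs2 had its highest levels in macrophages and most of its positive barcodes in fibroblasts. Mrc1+ macrophages had 207.4 CPM (177.9 to 240.4, 176 UMIs) in the RA library and 625.6 CPM (571.0 to 683.9, 483 UMIs) in the butyrate library. Mrc1- macrophages had 608 CPM (493.6 to 741.0) and 664.2 CPM (566.7 to 773.7). The gap between Mrc1+ and Mrc1- macrophages was thus seen in the RA library, while the butyrate intervals overlapped. That RA level rested on few cells: 5 of 17 Mrc1- barcodes had a Ptgs2 UMI, and 2 barcodes held 50% of these UMIs. In butyrate Mrc1- macrophages 11 of 18 barcodes had a UMI, and 2 held 50%. In fibroblasts Ptgs2 was 133 CPM (125 to 141.4) and 179.2 CPM (165.0 to 194.3), with a UMI in 266 of 865 and 130 of 367 barcodes.

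The Ptgs2 ratio in Mrc1+ macrophages was 3.017 (2.533 to 3.606). A UMI was found in 26 of 113 RA and 30 of 89 butyrate barcodes, and 5 and 11 barcodes had 10 or more. The top barcode held 55 of the 176 RA UMIs and 135 of the 483 butyrate UMIs. The ratio was 3.175 (2.575 to 3.938) without these barcodes, 2.295 (1.393 to 3.861) with 1000 UMIs per barcode and 1.932 (1.578 to 2.374) with all gate thresholds doubled, which falls below the 2-fold of the rule. A list of 16 immediate early and heat shock genes that are known to respond to tissue dissociation had a summed level of 29290 CPM in RA and 36530 CPM in butyrate Mrc1+ macrophages, a ratio of 1.247, and the plasma cell list 1351 and 136 CPM, of which Jchain, the joining chain of secreted antibodies, made up 1241 and 22.0 CPM. The fibroblast list, led by Col3a1 and Dcn in the butyrate library, had 109.6 and 646.3 CPM there, with none of its 8 genes at 0 in either library. The part of these 3 lists in the Ptgs2 difference was not tested. Among Mrc1+ macrophages of no other class the Ptgs2 ratio was 2.47 (2.024 to 3.024). In fibroblasts the Ptgs2 ratio was 1.347 (1.215 to 1.492), and that of the dissociation list 1.379.

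Il6 and Ptgs2 were found together in fibroblasts. At 1000 UMIs per barcode, Ptgs2 was seen in 12 of 69 RA fibroblasts with Il6 (17.4%, exact 95% interval 9.32 to 28.4) and in 69 of 790 without (8.73%, 6.86 to 10.9). In the butyrate library the counts were 11 of 29 (37.9%, 20.7 to 57.7) and 33 of 338 (9.76%, 6.82 to 13.4). The intervals were apart in the butyrate library and overlapped in the RA library. In the RA library the fibroblast subset genes Adamdec1 and Pi16 were at similar shares with and without Il6. Adamdec1 was in 28 of 69 and 320 of 790 barcodes, and Pi16 in 15 of 69 and 152 of 790. Their butyrate shares are not given here, nor are those of Dpt, Cd34, Col14a1, Pdgfra, Cxcl13 and Ly6c1, which were also counted.

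Osm was a macrophage transcript. Mrc1+ macrophages had 199.1 CPM (170.2 to 231.5) in the RA library and 218.9 CPM (187.1 to 254.5) in the butyrate library, from 169 UMIs in each, in 50 of 113 and 49 of 89 barcodes. Mrc1- macrophages had 18.6 CPM (3.84 to 54.4, 3 UMIs) and 56.4 CPM (30.8 to 94.6, 14 UMIs), below Mrc1+ macrophages with intervals apart in both libraries. Osm and Il1b thus ran in opposite order over the 2 macrophage gates. Its receptor Osmr was carried by fibroblasts, at 167.2 and 144.6 CPM, a ratio of 0.8645.

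Il12b lay mainly in few Flt3+ barcodes that carried genes of migratory dendritic cells. It was found in 7 of 563 RA and 16 of 1054 butyrate Flt3+ barcodes, at 46.1 CPM (40.0 to 53.0, 201 UMIs) and 56.2 CPM (51.6 to 61.0, 554 UMIs). The top barcode held 76 of the 201 and 97 of the 554 UMIs. Ccr7 was present in 7 of 7 and 16 of 16 of these barcodes, Fscn1 in 6 of 7 and 15 of 16, and Zbtb46 in 5 of 7 and 13 of 16. These shares are at full depth, and those of Flt3+ barcodes without Il12b are not given here. Ccr7 was also the most abundant gene of the dendritic list in B and T cell barcodes of both libraries. Xcr1, a gene of the cross-presenting subset, was in 0 of 7 and 2 of 16, and the B cell gene Cd79a in 1 of 7 and 2 of 16. A further 92 RA UMIs lay in 4 barcodes of no gate, 81 of them in 1 barcode. Macrophages had 3 Il12b UMIs in the RA library, all in 1 barcode, and 0 in the butyrate library (exact interval up to 3.615 CPM).

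Among Flt3+ barcodes with no UMI of Cd79a, Cd3e or Epcam and under 10 of C1q the Il12b level was 521.5 CPM in the RA library and 1226 CPM in the butyrate library, a ratio of 2.351 (1.969 to 2.818), from 5 of 42 and 12 of 38 barcodes. In the same barcodes Il1b had 290.7 and 1215 CPM, a ratio of 4.18 (3.348 to 5.262), and 5 barcodes held 87.6% and 88.0% of its UMIs. These barcodes still differed in other markers between the libraries. The dendritic list had 2230 and 3560 CPM, the plasma cell list 635.4 and 54.9 CPM, and the B cell list 215.8 and 98.8 CPM, with 5 and 3 of its 6 genes detected in at least 10% of barcodes. Their part in both ratios was not tested. In the Flt3+ gate as given, the ratios were 1.218 (1.034 to 1.438) for Il12b and 1.131 (1.009 to 1.268) for Il1b.

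Il23a, the subunit that joins Il12b to form IL-23, was scarce. All kept barcodes held 37 RA and 52 butyrate UMIs, in 35 and 20 barcodes. In the butyrate library 31 of the 52 lay in the Mrc1- macrophage barcode that also led Il1a. Fibroblasts held 13 of the 37 RA UMIs, 1 in each of 13 barcodes, a level of 1.68 CPM (0.897 to 2.88), and T cells had 0.523 CPM from 3 UMIs. No barcode of either library had UMIs of both Il12b and Il23a.

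Within macrophages the mediators were detected together. To set depth equal, 126 RA and 107 butyrate macrophages with at least 1000 UMIs were thinned to 1000, of which 45 and 56 had Il1b. Nlrp3 was seen in 25 of the 45 RA macrophages with Il1b (55.6%, exact 95% interval 40.0 to 70.4) and in 19 of the 81 without (23.5%, 14.8 to 34.2). The butyrate counts were 30 of 56 and 13 of 51. Il1rn followed the same order, with 20 of 45 against 7 of 81 (intervals apart) and 20 of 56 against 7 of 51 (overlapping). Ptgs2 was in 9 of 45 against 4 of 81 RA barcodes (overlapping) and, in the butyrate library, in 18 of 56 (32.1%, 20.3 to 46.0) against 2 of 51 (3.92%, 0.479 to 13.5). Tnf, Osm, Il1a and Il6 were also more often seen with Il1b in both libraries, but with overlapping intervals. For Osm the RA counts were 9 of 45 and 12 of 81.

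Among the further genes looked at, Cd163, Lyve1 and Folr2 each had a lower share with Il1b than without. The intervals were apart for Cd163 in the RA library and for Folr2 in the butyrate library. Cd163, the haemoglobin scavenger receptor, was seen in 1 of 45 RA macrophages with Il1b (2.22%, 0.0563 to 11.8) and in 26 of 81 without (32.1%, 22.2 to 43.4). In the butyrate library the counts were 4 of 56 and 11 of 51, with overlapping intervals. Lyve1 was in 1 of 45 and 12 of 81, and in 1 of 56 and 8 of 51, with overlapping intervals in both libraries. Folr2 was in 4 of 45 and 12 of 81 RA barcodes (overlapping), and among butyrate barcodes in 0 of 56 (exact interval up to 6.38%) and 15 of 51 (29.4%, 17.5 to 43.8). These 3 genes were chosen after their values were seen, and the shares describe cells of 1 mouse each. The same shares were counted for Ccr2, Ly6c2, Cx3cr1, Mrc1, Mertk, Csf1r and H2-Aa and are not given here.

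**Figure D4:**
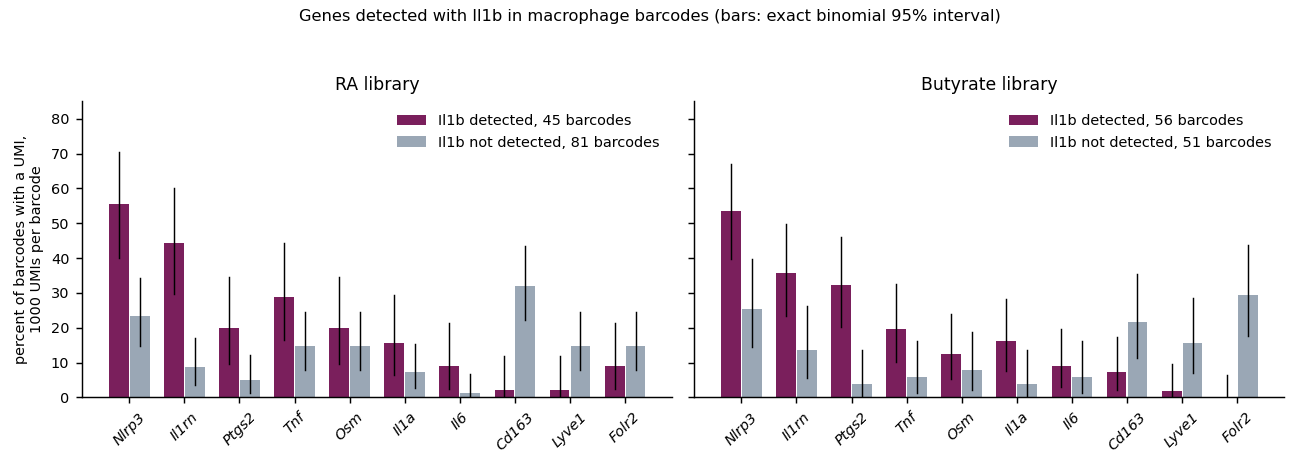
Percent of macrophage barcodes with a UMI of each gene (y axis) at 1000 UMIs per barcode, split by whether Il1b was detected, with exact binomial 95% intervals, for the RA library (45 with Il1b and 81 without) and the butyrate library (56 and 51). Nlrp3, Il1rn and Ptgs2 are more frequent with Il1b, and Cd163, Lyve1 and Folr2 more frequent without it. Cd163, Lyve1 and Folr2 were chosen from a larger set after their values were seen.

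To compare the libraries, a pair of mediator and gate was called when the CPM ratio was at least 2 or at most 0.5, its interval lay off 1 and at least 10 UMIs were counted. Of 60 pairs over the 6 gates, 47 had enough UMIs, 10 were called higher and 4 lower in the butyrate library. In Mrc1+ macrophages 1 of 8 pairs, Ptgs2, was called higher and none lower, where 3.76% of all genes tested were called higher and 2.96% lower. In Mrc1- macrophages Il1a (ratio 3.85) and Il23a (20.8) were called higher and Tnf (0.1664) lower, of 9 pairs, where 5.36% and 6.13% of genes were called. Among Flt3+ barcodes Il1a (21.65), Il1rn (2.682) and Il23a (5.154) were called higher, of 10 pairs, and none lower, where 1.54% and 6.26% of genes were. In the Siglecf or Ccr3 gate Il6 was called higher (at least 12.1-fold, against 3 counts over the gate) and Il1b (0.0684), Il1a (0.143) and Osm (at least 3.602-fold lower) lower, of 5 pairs, where 8.56% and 7.08% of genes were. The libraries held unlike barcodes in this gate: 34% of RA and 93.75% of butyrate barcodes passed another class, with medians of 1201 and 7173 UMIs. In fibroblasts Nlrp3 (6.587) was called higher and none lower, of 7 pairs, where 1.96% and 4.03% of genes were. In T cells Il1a (5.061) and Ptgs2 (3.282) were called higher and none lower, of 8 pairs, where 1.04% and 9.16% of genes were.

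Most of these calls rested on single barcodes that passed more than 1 gate. The 31 of 35 Il23a UMIs and 43 of 49 Il1a UMIs of butyrate Flt3+ barcodes lay in the Mrc1- macrophage barcode described above, which had 2 Flt3 UMIs. Of the 154 Ptgs2 UMIs of butyrate T cells, 135 lay in a barcode with 1 Cd3e UMI and 10 C1qa UMIs, the same barcode that led Ptgs2 in Mrc1+ macrophages. Of the 39 Nlrp3 UMIs of butyrate fibroblasts, 34 lay in a barcode that also passed the macrophage and epithelial gates. Of the 23 Il6 UMIs in the butyrate Siglecf or Ccr3 gate, 22 lay in the barcode with mast cell proteases, and 14 of the 17 RA Osm UMIs there lay in a barcode that also passed the macrophage gate. Without the top barcode of each library, 3 of the 10 higher calls were made again (Ptgs2 in Mrc1+ macrophages, Il1a in Mrc1- macrophages and Il1rn in Flt3+ barcodes) and 1 of the 4 lower calls (Il1b in the Siglecf or Ccr3 gate). That Il1b call was not made in the narrower gate, where the ratio was 0.3483 (0.008359 to 2.206) against 1 butyrate barcode. Of the 85 Il1rn UMIs of butyrate Flt3+ barcodes, 22 lay in a barcode that also passed the Mrc1+ macrophage and B cell gates. In the narrower Flt3+ gate Il1rn had 3 and 6 UMIs, too few for a call. With 1000 UMIs per barcode, Ptgs2 in Mrc1+ macrophages was the only higher call, and none of the 4 lower calls was made again.

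**Figure D5:**
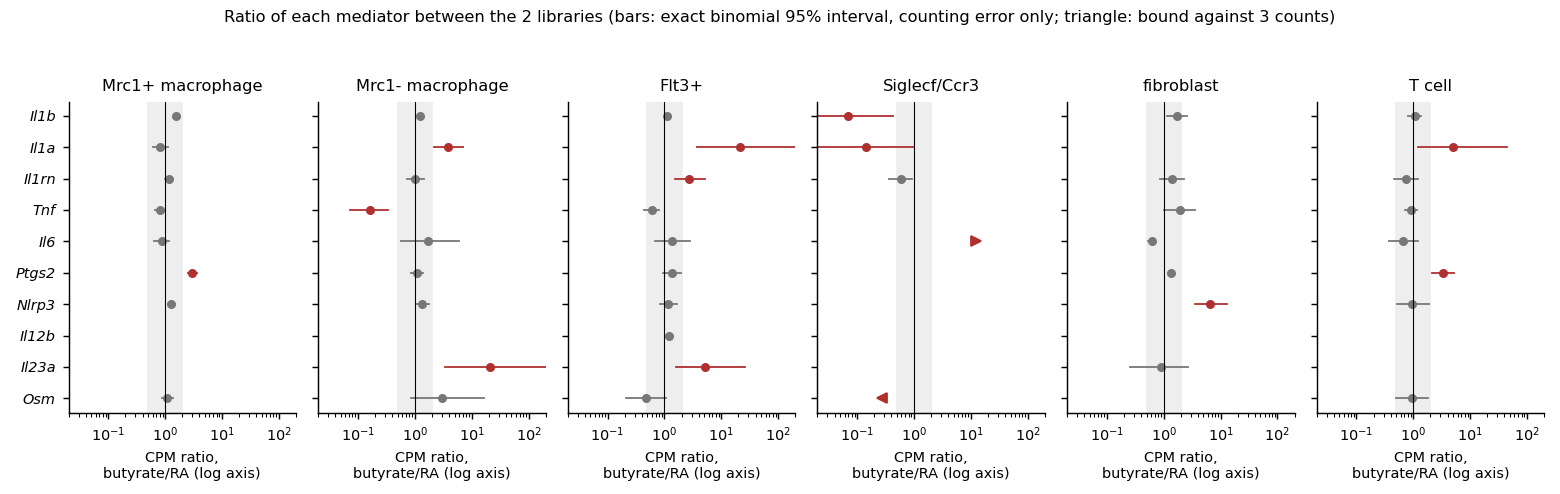
CPM ratio of butyrate over RA (x axis, log scale) for each mediator with at least 10 UMIs in 6 gates, with exact binomial 95% intervals; the grey band spans 0.5 to 2, red marks calls and triangles mark bounds against 3 counts. In Mrc1+ macrophages 7 of 8 ratios lie inside the band and Ptgs2 lies at 3.017.

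The other genes of these pathways were compared by the same rule. In Mrc1+ macrophages, where 3.76% of all genes tested were called higher and 2.96% lower, each list had at most 1 gene called. Of 16 genes of NF-kB and its feedback inhibitors none was called, and their median log2 ratio was 0.12 against -0.02 over all 9662 genes tested. Nfkbia, the inhibitor that NF-kB induces first, had 1288 and 1544 CPM, and Tnfaip3 442 and 495 CPM. Of 11 genes of IL-1 processing and IL-1 receptors tested, none was called higher and 1 lower, Il18, at 47.1 and 22.0 CPM from 40 and 17 UMIs. Casp4 had 266.3 and 248.7 CPM and Pycard, the inflammasome adaptor, 205 and 158 CPM. Of 8 TNF receptor and adaptor genes Ltb, for lymphotoxin beta, was called higher (7 and 20 UMIs), of 5 IL-12 and IL-23 genes Il27 was called lower (24 and 5 UMIs), and none of 7 IL-6 family genes was called. None of 9 prostaglandin genes was called. The synthase Ptges, which acts after cyclooxygenase-2, had 3 and 6 UMIs. None of 8 anti-inflammatory genes was called, and Il10 had 222.7 and 138.6 CPM, a ratio of 0.6223 (0.486 to 0.793). Of 9 sensor genes none was called, and Cd14, the lipopolysaccharide co-receptor, had 999 and 1439 CPM, a ratio of 1.44 (1.316 to 1.577). Of 16 dissociation genes Dnajb1, a heat shock cochaperone, was called higher, with a ratio of 2.73, and the list's median was 0.30. The 8 mediators tested had a median of 0.18.

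In Mrc1- macrophages, where 5.36% of all genes tested were called higher and 6.13% lower, of 15 NF-kB genes Nfkb1 (2.076) and Tnfaip3 (2.412) were called higher and none lower, with a median log2 ratio of 0.48 against -0.08 over 5240 genes. Of 8 genes of the IL-1 list 2 were called lower, the decoy receptor Il1r2 (496.3 and 64.4 CPM) and Pycard (310.2 and 148.9 CPM). Another 2 were called higher, Il18bp, which neutralises IL-18 (2 and 62 UMIs), and Casp4 (5 and 36 UMIs). Of 16 dissociation genes 4 were called higher and 1 lower. These values come from 17 and 18 barcodes.

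In fibroblasts, which carry the receptors for several of these cytokines, none of 12 genes of the IL-1 list was called. Il1r1 had 100.8 and 70.8 CPM, a ratio of 0.702 (0.604 to 0.814). Il6st, the shared signalling chain of the IL-6 family, had 212.1 and 193.3 CPM, and Tnfrsf1a 92.9 and 83.0 CPM. None of 16 NF-kB genes was called, with a median of 0.27 against -0.02 over 15332 genes. Of 13 prostaglandin genes Ptger3, a prostaglandin E2 receptor, was called lower, at 12.8 and 1.23 CPM. In T cells 6 of 13 prostaglandin genes were called lower and none higher, at levels of 18.0 CPM or less, among them Hpgd with 18.0 and 6.97 CPM, where 9.16% of all genes were called lower. In the same gate the fibroblast list had 566.8 and 75.9 CPM and the epithelial list 611.2 and 356.3 CPM, with no gene of either list at 0, and their part in these calls was not tested. Of 16 dissociation genes in T cells 1 was called lower, Egr1, with a ratio of 0.4801.

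Across 8 gates in both libraries (16 points, 12370 genes compared, log2 of CPM plus 10), the genes whose levels ran most like each mediator were found by Pearson's r. For Il1b these were Aif1 (0.988), Nlrp3 (0.974) and Csf2ra (0.974), for Nlrp3 the scavenger receptor genes Msr1 (0.992) and Cd68 (0.992) and Clec4n (0.991), and for Osm Ms4a7 (0.972), C3ar1 (0.970) and Adssl1 (0.964). Tnf ran with Mgl2 (0.956), Pf4 (0.953) and Cysltr1 (0.948), and Il1rn with Rabgef1 (0.973), Ptafr (0.962) and Rab5c (0.961). Il6 ran with Mras (0.970), Sorbs3 (0.956) and Acvrl1 (0.911), and Ptgs2 with Adap2 (0.973), Nfkbia (0.967) and Itpripl2 (0.963). Il12b ran with Havcr1 (0.892), Apol7c (0.878) and Flt3 itself (0.860), which sets its gate. The points share libraries and some barcodes, so r is a description only.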

How the data were processed

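Raw UMI counts per gene and barcode were deposited by the authors for 2 libraries of dissociated mouse intestine, made with droplet 3′ chemistry (v3.1 kit) per the labels. The submitters' processing notes name Cell Ranger 6.0.1, Seurat 4.0.3 and 4.0.4 and mm10; the file headers name Cell Ranger 7.1.0. Whether intronic reads were counted is not given in the sources used here. Gene identifiers were matched to GENCODE M21 (31107 of 31253 found).

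Barcodes were filtered and gated as described above, with no doublet removal in the values given. Scrublet in scanpy 1.11.5 called 0 and 2 doublets by its own threshold, so removal of the 382 and 544 highest scores (0.8% per 1000 barcodes) was an alternative. Python 3.11.15, numpy 2.4.6 and scipy 1.17.1 were used. UMIs were summed per gate and library. Ratios carry exact conditional binomial 95% intervals, shares exact Clopper-Pearson intervals and bounds a floor of 3 counts over the gate. With 1 library per group there was no test and no p-value. Summed depth ranged from 118956 to 10766706 UMIs over the 6 compared gates. Code for the ratios was tested on simulated data. All 10 mediators were named, and of each pathway list the 2 highest and 2 lowest ratios among called genes with at least 50 UMIs and the 2 most abundant genes; other pathway genes in the text were chosen after their values were seen. Members and lists were chosen with earlier results of these data known. Alternatives were the mitochondrial limit, UMI floor, gate thresholds, barcodes of 1 class, doublet removal, thinning, the top barcode left out, a mean over barcodes and no UMI minimum.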

Additional observations from a re-analysis of the deposited data

Results flagged for a closer look

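Tnf was measured outside the kept barcodes. In the 1808 RA barcodes above the mitochondrial limit of 25% that met the other limits it was 21.3 CPM (21.29; 18.55 to 24.32, 217 UMIs in 165 barcodes), above the 15.4 CPM (14.3 to 16.6) of kept RA barcodes. The same comparison in the butyrate library gave 13.6 CPM (11.02 to 16.7) and 15.4 CPM, with overlapping intervals. Il1b, Il6, Ptgs2 and Nlrp3 were lower in the RA barcodes above the limit than in kept ones, at 12.1, 2.55, 1.67 and 2.06 CPM.

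The Il1a ratio of butyrate over RA went in opposite directions between gates. It was 3.85 in Mrc1- macrophages, 21.65 in Flt3+ barcodes and 5.061 in T cells, and 0.143 in the Siglecf or Ccr3 gate. The difference between gates was not tested. The Flt3+ value rests on 1 RA and 49 butyrate UMIs, 43 of the latter in 1 barcode that also counts among Mrc1- macrophages. The T cell value rests on 2 and 19 UMIs, 11 of the latter in 1 barcode that also passes the Mrc1- macrophage gate and has 1 Cd3e UMI, and the Siglecf or Ccr3 value on 11 and 1.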

How the results depend on the processing

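The 10 higher and 4 lower calls depended on depth and on single barcodes. With 1000 UMIs per barcode 24 pairs could be tested and 1 was higher and 1 lower. The higher pair was among the 10 called before. The lower pair, Il1rn in the Siglecf or Ccr3 gate, was not among the 4. Without the top barcode 3 were higher and 3 lower. With barcodes of 1 class alone 8 were higher and 2 lower, and with the Flt3 and Siglecf or Ccr3 gates free of UMIs of Cd79a, Cd3e and Epcam and, for Flt3, of macrophages, an alternative chosen after seeing the data, 13 and 2. Of the 8 higher pairs with barcodes of 1 class alone, 2 were among the 10 called before. With doubled thresholds 10 were higher and 5 lower, of which 7 and 1 were among those called before; with the gates free of those UMIs these were 7 and 1. The other settings gave 10 to 14 higher and 3 to 5 lower. Of 412 recomputed ratios, 311 stayed within the interval of the value reported, 95 moved and 6 reversed. The reversed ratios were Il1a in Flt3+ barcodes (0 with barcodes of 1 class alone and 0 without those UMIs), Il23a in Flt3+ barcodes (0.8832 without the top barcode), Nlrp3 in fibroblasts (0.4441 with barcodes of 1 class alone) and Ptgs2 in T cells (0.7222 without the top barcode and 0.09259 with doubled thresholds). These settings leave out the barcodes that held most of the UMIs. The mitochondrial limit moved 1 ratio at 10% and none when dropped. Leaving out a replicate was not possible with 1 library per group. No paired analysis was possible because each group has 1 library. Depth limits Il12b and Il23a most: Il12b had 10 UMIs or more only in Flt3+ barcodes among the 6 gates. A further 26 ratios could not be given.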
